A study of Mus musculus with 21 samples.

Results

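The genes described here are 10 genes of blood vessel endothelium: Pecam1, Cdh5, Emcn, Ehd3, Plvap, Eng, Cldn5, Esam, Jam2 and Plat. They were chosen by name, as genes used to follow the capillaries of the kidney glomerulus, with earlier results of these data known. Their share of calls beside that of all genes is therefore a description and not an independent test. Each gene was read in all 21 libraries of the study. The count tables list 27179 genes, and all 10 passed the filter on low counts that left 16377 genes for testing. The libraries were made from podocyte fractions, collected from digested kidney cortex of male C57BL/6J mice with antibodies to nephrin and magnetic beads, 1 mouse per library. The 6 young mice were 4 months old and untreated. The 7 middle-aged saline mice were injected with saline for 6 weeks from 18 months of age and were studied at 19.5 months. The 8 middle-aged MCC950 mice received 10 mg/kg of MCC950, an inhibitor of the NLRP3 inflammasome, on the same schedule. All mice were wildtype. The young mice received no injection, so age and injection cannot be told apart in a comparison with them. The numbers in the sample titles fall in a separate block for each group. Whether the groups were collected or sequenced together is not stated in the sources used here, so such differences cannot be told apart from age or treatment.

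The glomerulus is a tuft of capillaries that filters blood through a fenestrated endothelium, a basement membrane and the foot processes of podocytes. Endothelial cells hold to each other through VE-cadherin and tight junction proteins, sense bone morphogenetic proteins through endoglin and its partner receptors, and release tissue plasminogen activator. Fenestrae of capillaries around the tubules are closed by a diaphragm built from the Plvap product, PV-1, whereas most fenestrae of adult glomerular capillaries lack it. Ehd3, which encodes an endocytic membrane-shaping ATPase, is in the kidney a marker of the glomerular capillaries. In a fraction sorted for podocytes, transcripts of endothelial genes can come from cells carried along with the sort, and their source was not tested. In such bulk samples fewer cells of a type and less RNA per cell cannot be told apart.

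The libraries differed in ways that touch every comparison below. Total counts ranged from 27375870 to 36827823 in young, from 45772937 to 84876399 in saline and from 35440472 to 58247271 in MCC950 libraries, with no overlap between saline and young libraries (p = 0.00117 by a two-sided exact permutation of the labels). Genes of the mitochondrial genome took 51.5% to 80.4% of the counts in young, 63.0% to 79.2% in saline and 49.9% to 63.7% in MCC950 libraries (p = 0.000622 for MCC950 against saline by the same exact permutation). Nphs1, which encodes nephrin, the target of the sort, had a median of 41.4 CPM (reads of a gene scaled by the effective size of its library) in young, 6.48 in saline and 11.7 in MCC950 libraries. Over all genes tested, 1996 were higher and 2038 lower in saline than in young libraries, and 1957 were higher and 796 lower in MCC950 than in saline libraries. With upper quartile normalization the second pair of counts became 1283 and 1271. Between MCC950 and young libraries 3572 genes were higher and 2705 lower, against 2761 and 3241 with upper quartile normalization.

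Each gene was located by its Entrez Gene number in RefSeq on GRCm38, the assembly also named mm10, to which the authors aligned the reads. Pecam1 (18613) lies at chr11:106654213-106715281, Cdh5 (12562) at chr8:104101613-104144504, Emcn (59308) at chr3:137341062-137431069, Ehd3 (57440) at chr17:73804841-73832093 and Plvap (84094) at chr8:71497753-71511806. Eng (13805) lies at chr2:32646595-32682669, Cldn5 (12741) at chr16:18776847-18778262, Esam (69524) at chr9:37528089-37538319, Jam2 (67374) at chr16:84774123-84826380 and Plat (18791) at chr8:22757722-22782848. The span of Plvap overlaps that of Gtpbp3, and the span of Eng overlaps those of Fpgs and Mir1954. The strand setting of the counting is not given in the sources used here, so reads in those overlaps cannot be assigned with certainty.

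RefSeq promoter sequence was at hand for 4 of the 10 genes, all 4 lower in saline than in young libraries (below). It is shown so that their upstream regions can be compared, although the 4 genes did not share a call between MCC950 and saline libraries. Each run has 234 bases, starts 250 bases before the start of transcription in the table, lies on the plus strand of GRCm38.p6 and ends before the first base of the gene. Capitals mark GGAA, the core bound by ETS factors such as Erg and Fli1, and its reverse complement.
Emcn, chr3:137340828-137341061: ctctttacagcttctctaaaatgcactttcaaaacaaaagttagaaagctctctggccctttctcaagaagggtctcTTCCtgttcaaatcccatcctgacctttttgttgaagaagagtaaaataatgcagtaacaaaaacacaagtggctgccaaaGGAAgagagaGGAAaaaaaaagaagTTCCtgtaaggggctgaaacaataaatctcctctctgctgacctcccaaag
Ehd3, chr17:73804591-73804824: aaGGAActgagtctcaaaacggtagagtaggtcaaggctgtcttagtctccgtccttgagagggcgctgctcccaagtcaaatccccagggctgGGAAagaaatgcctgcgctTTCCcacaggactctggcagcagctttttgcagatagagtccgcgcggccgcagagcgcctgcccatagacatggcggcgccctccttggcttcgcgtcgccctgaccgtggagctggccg
Eng, chr2:32646345-32646578: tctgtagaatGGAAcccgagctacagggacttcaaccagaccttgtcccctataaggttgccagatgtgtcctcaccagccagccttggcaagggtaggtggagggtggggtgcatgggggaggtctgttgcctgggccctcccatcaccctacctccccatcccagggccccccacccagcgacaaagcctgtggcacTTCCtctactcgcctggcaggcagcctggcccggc
Cldn5, chr16:18776597-18776830: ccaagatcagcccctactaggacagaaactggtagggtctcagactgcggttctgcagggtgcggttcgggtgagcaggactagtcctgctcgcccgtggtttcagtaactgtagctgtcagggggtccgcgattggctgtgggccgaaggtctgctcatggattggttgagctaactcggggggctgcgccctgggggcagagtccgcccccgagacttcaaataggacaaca

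On both strands, GGAA occurred 4 times in the window of Emcn, 3 times in that of Ehd3, 2 times in that of Eng and 0 times in that of Cldn5, while 92.2% of 32851 promoter windows of the same length in the table held it. The letters AACAAT, a core bound by SOX factors, were found 1 time in the window of Emcn and in none of the other 3, against 9.08% of all windows. AGATAA, a site of GATA factors, and TATAAA, the TATA box, were in none of the 4 windows, against 9.61% and 11.9% of all windows. These matches describe letters only. The base composition also differed, since G and C made up 40.2% of the window of Emcn and 60.3% to 63.2% of the other 3. Promoters of Pecam1, Cdh5, Plvap, Esam, Jam2 and Plat are not shown here.

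To compare levels between the genes, CPM was divided by the length of the gene's exons in kilobases. In young libraries Ehd3, Eng and Plat led with medians of 36.2, 35.2 and 34.8 CPM per kb, and their ranges overlapped. Cldn5, Pecam1, Plvap, Cdh5, Esam and Emcn followed, with medians from 15.2 down to 10.7 CPM per kb, each overlapping its neighbours in the order. Jam2 came last with 2.53 CPM per kb, below every library of the other 9 genes. In saline libraries Eng led with 17.3 CPM per kb, followed by Plat with 14.8 and Plvap with 13.4, and Ehd3 was the fourth with 9.87. In MCC950 libraries the order was Eng with 19.4, Plat with 14.9, Ehd3 with 10.9 and Plvap with 9.39 CPM per kb, and Jam2 was again last with 0.834. Neighbours among these 4 genes overlapped in their ranges in both middle-aged groups. Ehd3 thus moved from the top of the order in young to the fourth place in saline libraries, while the median of Plvap stayed between 13.1 and 13.4 CPM per kb in those groups.

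The first comparison asked how the genes differed between young and middle-aged podocyte fractions. Of the 10 genes, 8 were lower in saline than in young libraries (edgeR quasi-likelihood test, Benjamini-Hochberg adjusted p under 0.05), 0 were higher, and Plvap and Jam2 did not pass. Over all genes tested, 12.4% were lower at the same threshold. In 7 of the 10 genes every saline library was below every young library, against 4.86% of all genes. The median log2 fold change of the 10 genes was -0.93, and that of all genes was 0.02. Values below are in CPM after TMM normalization, and fold changes are on the log2 scale with their standard error (SE), saline minus young.

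**Figure D1:**
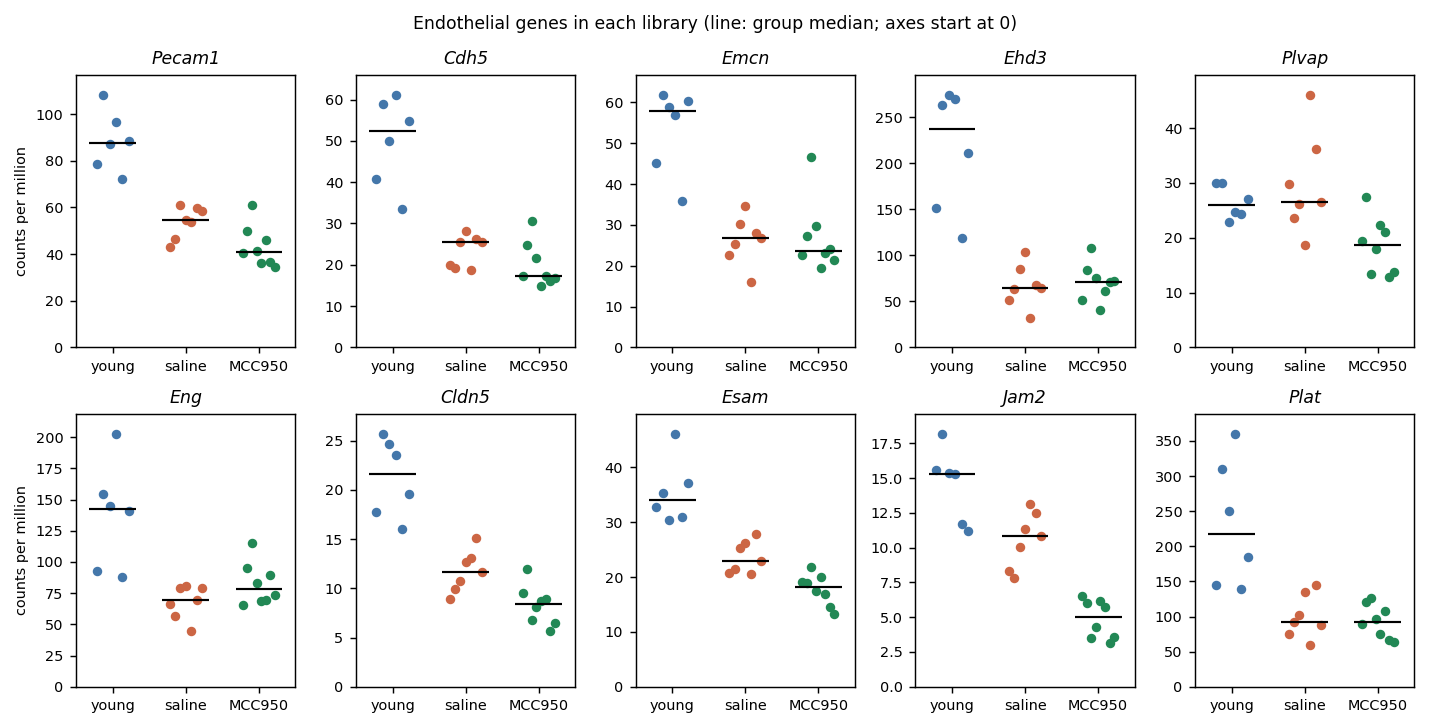
CPM of each endothelial gene in each library (1 point per mouse; 6 young, 7 saline, 8 MCC950), with a line at the group median and each axis starting at 0. Saline libraries lay below all young libraries in 7 of the 10 genes, and MCC950 libraries lay below all saline libraries in Jam2.

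Ehd3 had the largest difference of the 10. It ranged from 119 to 274 CPM with a median of 237 in young libraries, and from 31.6 to 103 CPM with a median of 64.7 in saline libraries. The ranges did not meet, and the log2 fold change was -1.68 (SE 0.25, edgeR adjusted p = 8.2e-05), a 3.21-fold lower level. In MCC950 libraries the gene ranged from 41.2 to 108 CPM with a median of 71.5, and 6 of the 7 saline libraries fell within that range. Young replicate 5 and saline replicate 5 were the lowest of their groups.

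Plat, which encodes tissue plasminogen activator, ranged from 139 to 360 CPM in young libraries with a median of 217. In saline libraries it ranged from 59.9 to 144 CPM with a median of 92.3. Saline replicate 6 was above the lowest young library, replicate 5, and the other 6 saline libraries were below all young libraries. The log2 fold change was -1.22 (SE 0.24, edgeR adjusted p = 0.001).

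Endoglin and endomucin, both surface glycoproteins of endothelium, differed by similar amounts. Eng, the gene of endoglin, a co-receptor for bone morphogenetic proteins, ranged from 87.7 to 203 CPM in young libraries (median 142) and from 44.6 to 80.9 CPM in saline libraries (median 69.9), without overlap. Its log2 fold change was -1.01 (SE 0.18, edgeR adjusted p = 0.000459). Emcn, the gene of endomucin, a sialomucin of capillary and venous endothelium, ranged from 36.0 to 61.9 CPM in young (median 57.9) and from 15.9 to 34.7 CPM in saline libraries (median 26.8), with a log2 fold change of -1.02 (SE 0.19, edgeR adjusted p = 0.000595). The highest saline library of Emcn was close to the lowest young library, replicate 5.

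Among the genes of cell contacts, Cdh5 differed most. Cdh5 encodes VE-cadherin, the adhesion molecule of endothelial adherens junctions, and ranged from 33.5 to 61.2 CPM in young (median 52.4) and from 18.8 to 28.3 CPM in saline libraries (median 25.6). The log2 fold change was -1.09 (SE 0.17, edgeR adjusted p = 0.000115). Cldn5 encodes a claudin of tight junctions, and the cells that gave its reads were not tested. It ranged from 16.0 to 25.7 CPM in young and from 8.95 to 15.1 CPM in saline libraries. The log2 fold change of Cldn5 was -0.85 (SE 0.16, edgeR adjusted p = 0.000568). Both genes were lower in all 7 saline than in all 6 young libraries.

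The immunoglobulin-like adhesion molecules of the endothelial surface showed smaller differences. Pecam1, also called CD31, ranged from 72.2 to 108 CPM in young (median 87.8) and from 42.9 to 60.9 CPM in saline libraries (median 54.8), a log2 fold change of -0.72 (SE 0.13, edgeR adjusted p = 0.000391). Esam, which sits in endothelial tight junctions, ranged from 30.4 to 46.1 CPM in young (median 34.1) and from 20.6 to 27.9 CPM in saline libraries (median 22.9), a log2 fold change of -0.59 (SE 0.12, edgeR adjusted p = 0.001). The groups did not overlap in either gene. Jam2, a junctional adhesion molecule of endothelium that also serves leukocyte contacts, ranged from 11.2 to 18.2 CPM in young (median 15.3) and from 7.81 to 13.1 CPM in saline libraries (median 10.9). Here 3 of 7 saline libraries lay within the young range, and the log2 fold change of -0.46 (SE 0.17) did not pass the test (edgeR adjusted p = 0.0563), although it passed with DESeq2 (adjusted p = 0.0291).

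Plvap was the only one of the 10 with a positive fold change. It ranged from 22.8 to 30.0 CPM in young libraries, a narrow span around a median of 26.0. In saline libraries it ranged from 18.6 to 46.1 CPM around a median of 26.6, and both the lowest and the highest value of the 2 groups were saline libraries. The log2 fold change was 0.16 (SE 0.19, edgeR adjusted p = 0.589). Saline replicate 5 had the highest Plvap and the lowest Ehd3 of its group, and saline replicate 4 had the lowest Plvap and the highest Ehd3.

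The distance between Plvap and Ehd3 in each library, a pair singled out after the values were seen, is given as a description. The log2 ratio of Plvap to Ehd3 ranged from -3.58 to -2.29 in young (median -3.04), from -2.47 to 0.54 in saline (median -1.28) and from -3.02 to -0.88 in MCC950 libraries (median -1.85). Ehd3 was above Plvap in CPM in all young and MCC950 libraries, and Plvap was above Ehd3 in saline replicate 5.

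**Figure D2:**
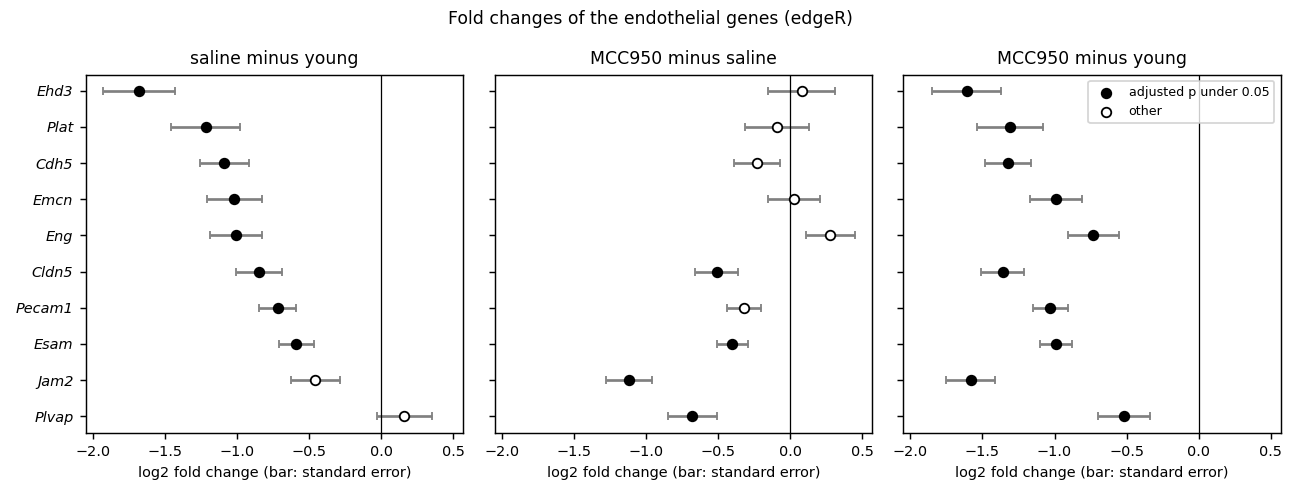
Log2 fold change of each endothelial gene (x axis; bars are the standard error) in the 3 comparisons, from 1 edgeR fit over 21 libraries; filled points had an adjusted p under 0.05. Against young, 8 of 10 genes were lower in saline and 10 of 10 in MCC950 libraries. Against saline, 4 of 10 were lower in MCC950 libraries.

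Other endothelial genes, taken from lists put together with earlier results of these data known, stood as follows between saline and young libraries. Of 24 genes made by most endothelium, 20 were lower and 0 higher, with a median log2 fold change of -0.78. Those with the smallest adjusted p were Clec14a, an endothelial C-type lectin (log2 fold change -1.12, SE 0.15, adjusted p = 3.04e-05), Tek, the receptor of the angiopoietins (-1.25, SE 0.16, adjusted p = 3.04e-05), Sox18, a transcription factor (-1.04, SE 0.15, adjusted p = 4.96e-05), and Tmem204 (-1.30, SE 0.18, adjusted p = 5.31e-05). All 4 had no overlap between the groups. Of 20 endothelial transcription factors, 11 were lower and 1 higher (median -0.39), and Epas1, the hypoxia-inducible factor of endothelium, fell by 0.97 (SE 0.14, adjusted p = 6.96e-05).

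The vascular beds differed in their counts. Of 6 genes of glomerular capillary endothelium, 5 were lower with a median log2 fold change of -1.32. They included Tbx3 (-1.41, SE 0.20, adjusted p = 5.04e-05) and Gata5 (-1.57, SE 0.24, adjusted p = 0.000125), transcription factors of glomerular endothelium, Pi16 (-1.29, SE 0.19, adjusted p = 8.05e-05) and Smad6, an inhibitor of bone morphogenetic protein signalling (-1.36, SE 0.24, adjusted p = 0.000457). Of 10 arterial genes, 6 were lower and 0 higher (median -0.61), led by Efnb2, the ephrin of arteries (-1.14, SE 0.18, adjusted p = 0.000121), and Gja5, a gap junction protein (-1.05, SE 0.17, adjusted p = 0.000154). Of 11 genes of peritubular and venous endothelium, 5 were higher and 2 lower, with a median of 0.56. Leaving out 1 library ended the calls of the higher Vwf and Selp in 2 of 21 fits each, and that of the lower Nr2f2 in 1. Igf1 rose by 1.44 (SE 0.30, adjusted p = 0.00175) and Vcam1 by 1.25 (SE 0.37, adjusted p = 0.0159), and both are also made by other cells of the kidney. Npr3, which podocytes also make, fell by 2.00 (SE 0.23, adjusted p = 1.04e-05). Of 4 lymphatic genes tested, 1 was lower and 0 were higher. The difference between the vascular beds was not tested.

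The partners of the 10 genes were followed by role. Of 20 junction partners, 13 were lower and 1 higher (median -0.29), among them Jup, which encodes plakoglobin (-0.47, SE 0.07, adjusted p = 7.4e-05), and Tjp1, which encodes the scaffold ZO-1 (-0.96, SE 0.15, adjusted p = 0.000165), neither of them particular to endothelium. Of 16 genes tested around endoglin, 8 were lower and 0 higher (median -0.25). The ligands Gdf2 and Bmp10 had 3 or fewer counts over the libraries of each group, while the type 2 receptor gene Bmpr2 was lower by a log2 fold change of -0.98 (SE 0.18, adjusted p = 0.000594) and the target gene Id1 by -0.95 (SE 0.18, adjusted p = 0.000792). Of 12 genes of the plasminogen and clotting system tested, 3 were lower and 0 higher (median -0.09). They were Serpini1, an inhibitor of tissue plasminogen activator (-1.29, SE 0.17, adjusted p = 2.76e-05), Thbd, thrombomodulin (-0.72, SE 0.13, adjusted p = 0.000386), and Serpine2, a protease inhibitor (-0.89, SE 0.21, adjusted p = 0.00464). Of 12 genes of the EHD family and caveolae, 6 were lower and 1 higher (median -0.29). The caveolar genes Cav2 (-1.23, SE 0.14, adjusted p = 1.04e-05) and Cav1 (-1.22, SE 0.16, adjusted p = 3.6e-05) and the Ehd3 paralogue Ehd2 (-1.20, SE 0.16, adjusted p = 2.95e-05) were among the lower. The higher gene of this list was Ehd1 (0.24, SE 0.08, adjusted p = 0.039) and that of the junction partners Rap1b (0.41, SE 0.15, adjusted p = 0.0476). With DESeq2 neither passed (adjusted p = 0.0591 and 0.0576), and leaving out 1 library ended the call of Ehd1 in 10 of 21 fits and that of Rap1b in 11.

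**Figure D3:**
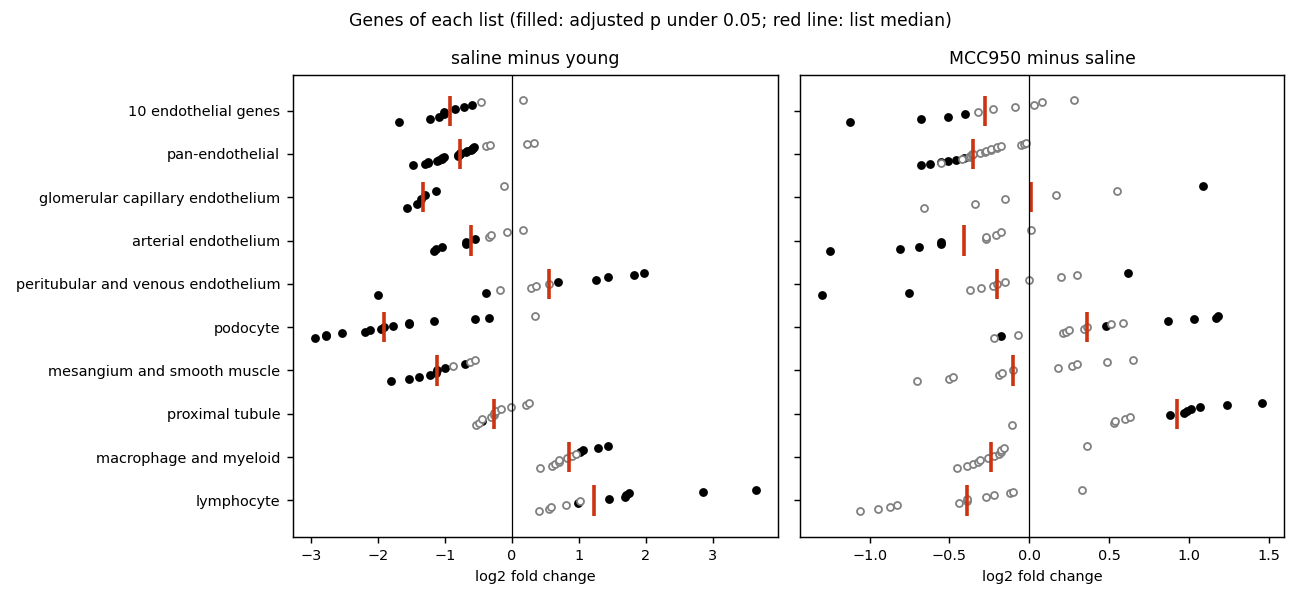
Log2 fold change of every tested gene of 10 lists (1 point per gene; filled, adjusted p under 0.05; red line, list median) for saline minus young on the left and MCC950 minus saline on the right. Endothelial, podocyte and mesangial lists had medians below 0 in saline minus young, while the peritubular and venous, macrophage and lymphocyte lists had medians above 0.

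Markers of other cells moved in the same comparison. Of 15 podocyte markers, 14 were lower in saline libraries with a median log2 fold change of -1.91, which is below that of the endothelial genes, and their mean log2 CPM ranged from 4.97 to 6.04 in young and from 3.09 to 4.31 in saline libraries. Of 11 mesangial and smooth muscle markers, 8 were lower (median -1.12). Of 12 macrophage and myeloid markers 4 were higher (median 0.86), and of 12 lymphocyte markers 7 were higher (median 1.23). Of 12 proximal tubule markers 1 was lower, of 8 markers of the loop and distal tubule 2 were lower, and of 8 collecting duct markers 5 were lower. Of 7 fibroblast markers tested 3 were higher and 2 lower, and of 5 red cell markers 0 passed with edgeR, with DESeq2 or at an unadjusted p under 0.05. Of 6 platelet markers tested, of a cell that also carries Pecam1 and Esam, 1 was higher and 2 lower, and Gp6 had 3 or fewer counts over the young and over the saline libraries. The part of these cells in the lower endothelial values was not tested.

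With the mean log2 CPM of the 24 other endothelial genes, of the podocyte markers or of the mesangial markers as a term in the fit, 0 of the 10 genes passed between saline and young. Those 3 means did not overlap between the groups, and over all 16377 genes the calls fell to 28 higher and 4 lower, 6 and 0, and 18 and 5, so that hardly any gene passed. The fold changes differed between the terms. With the mesangial term Ehd3 had a log2 fold change of -1.32, Emcn -0.76, Cdh5 -0.71, Eng -0.70 and Pecam1 -0.50, while Plat (-0.29), Cldn5 (-0.28) and Esam (-0.15) were nearer to 0. With the endothelial term Ehd3 had -0.46 and Cldn5 -0.30, and the other 6 genes that had passed lay between -0.10 and 0.14. With the podocyte term Cldn5 had -0.34, Esam -0.16, Pecam1 -0.07 and Cdh5 0.00, and Ehd3, Emcn, Eng and Plat were above 0.

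**Figure D4:**
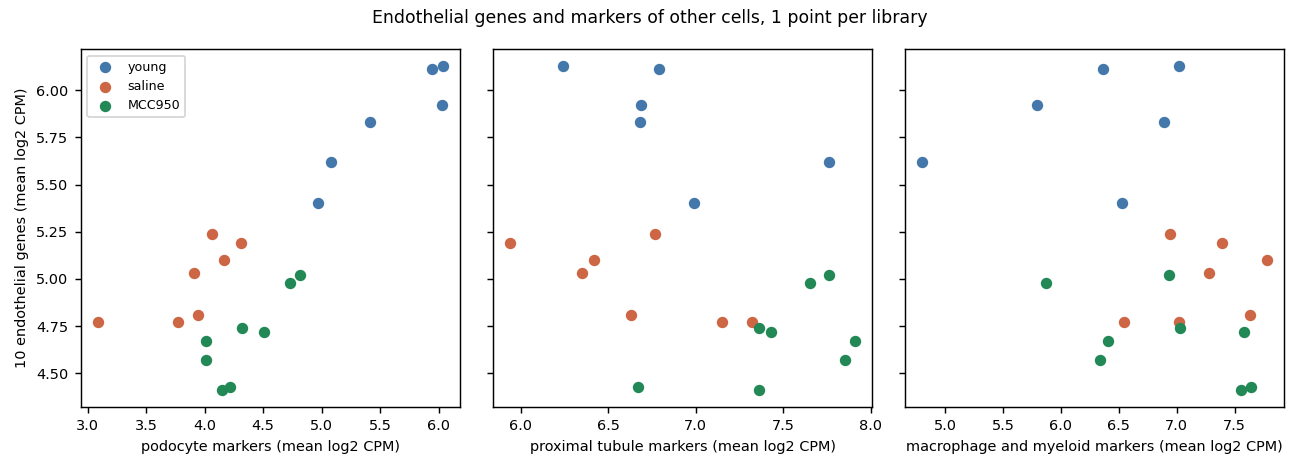
Mean log2 CPM of the 10 endothelial genes (y axis) against the mean log2 CPM of podocyte, proximal tubule and macrophage markers (x axes), 1 point per library. Young libraries were highest on the y axis and on podocyte markers, and MCC950 libraries reached lower endothelial means than saline libraries, down to 4.41 against 4.77.

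The second comparison asked how treatment with MCC950 of middle-aged mice differed from saline, and it shares the saline libraries with the first. Jam2, Plvap, Esam and Cldn5 were lower in MCC950 than in saline libraries, 0 of the 10 genes were higher, and the other 6 did not pass. Over all genes, 4.86% were lower at an adjusted p under 0.05. Only in Jam2 was every MCC950 library below every saline library, against 0.586% of all genes. The median log2 fold change of the 10 genes was -0.27, and that of all genes 0.00.

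Jam2 ranged from 3.18 to 6.50 CPM with a median of 5.04 in MCC950 libraries, against 7.81 to 13.1 CPM in saline libraries. The log2 fold change was -1.12 (SE 0.16, edgeR adjusted p = 0.00058), a 2.17-fold lower level, and over 35 alternative settings it stayed between -1.33 and -1.0 with adjusted p from 5.61e-09 to 0.0108. The gene rested on 165 to 476 reads in each MCC950 library and on 426 to 1077 in each saline library.

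Plvap ranged from 12.8 to 27.4 CPM in MCC950 libraries with a median of 18.7, and 4 of the 8 were below the lowest saline library. The log2 fold change was -0.68 (SE 0.17, edgeR adjusted p = 0.0139). Esam ranged from 13.2 to 21.9 CPM (median 18.3), with 7 of 8 MCC950 libraries below the lowest saline library and a log2 fold change of -0.40 (SE 0.11, edgeR adjusted p = 0.016). Cldn5 ranged from 5.69 to 12.0 CPM (median 8.41), with 6 of 8 below the lowest saline library and a log2 fold change of -0.51 (SE 0.15, edgeR adjusted p = 0.0227). All 3 genes overlapped between the groups, with the highest MCC950 library at replicate 2 for Plvap and Cldn5 and at replicate 3 for Esam.

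The other adhesion genes had negative fold changes that did not pass with edgeR. Pecam1 ranged from 34.5 to 61.1 CPM in MCC950 libraries (median 40.9), with a log2 fold change of -0.32 (SE 0.12, edgeR adjusted p = 0.0669, DESeq2 adjusted p = 0.0354). Cdh5 ranged from 14.9 to 30.6 CPM (median 17.3), with a log2 fold change of -0.23 (SE 0.16, edgeR adjusted p = 0.325). In both genes the lowest saline value was above 5 of the 8 MCC950 libraries, while MCC950 replicate 3 exceeded the highest saline value.

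Ehd3, Emcn, Eng and Plat had fold changes near 0 or above it, and none passed. Eng ranged from 65.6 to 115 CPM in MCC950 libraries (median 78.5), 4 of 8 above the highest saline library, with a log2 fold change of 0.28 (SE 0.17, edgeR adjusted p = 0.267). Ehd3 had a log2 fold change of 0.08 (SE 0.23, edgeR adjusted p = 0.847). Emcn ranged from 19.5 to 46.6 CPM (median 23.7) with a log2 fold change of 0.03 (SE 0.18, edgeR adjusted p = 0.916), and Plat from 63.9 to 127 CPM (median 92.8) with a log2 fold change of -0.09 (SE 0.22, edgeR adjusted p = 0.815). The MCC950 and saline ranges of all 4 genes overlapped, least in Eng, in which 2 saline libraries also lay below every MCC950 library.

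Among other endothelial genes, all 24 genes made by most endothelium had a negative fold change in MCC950 against saline libraries, of which 6 passed (median -0.35; 9 with DESeq2). They included Adgrl4, an adhesion receptor (-0.68, SE 0.14, adjusted p = 0.00452), Robo4, a guidance receptor of vessels (-0.51, SE 0.11, adjusted p = 0.00492), Mmrn2, a matrix protein (-0.55, SE 0.12, adjusted p = 0.0073), and Egfl7, a secreted endothelial factor (-0.62, SE 0.15, adjusted p = 0.012). Of 10 arterial genes 5 were lower (median -0.41), led by Fbln5, an elastic fibre protein (-0.81, SE 0.14, adjusted p = 0.00136), and Bmx, a tyrosine kinase of arterial endothelium (-1.25, SE 0.27, adjusted p = 0.00589). Of 20 transcription factors 3 were lower and 0 higher (median -0.29), against 7 lower with DESeq2. The 3 were Gata2 (-0.68, SE 0.15, adjusted p = 0.00651), Sox17 (-0.69, SE 0.15, adjusted p = 0.00699) and Erg (-0.41, SE 0.13, adjusted p = 0.0304). Of the 6 glomerular capillary genes 1 was higher and 0 lower (median 0.01), and with DESeq2, its size factors or upper quartile normalization 1 was higher and 1 lower (median from -0.04 to -0.01). The higher gene was Sost, which encodes the Wnt inhibitor sclerostin, at 2.11 to 5.28 CPM in saline and 4.15 to 15.3 CPM in MCC950 libraries (1.09, SE 0.28, adjusted p = 0.013).

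Of 11 peritubular and venous genes, 1 was higher and 2 lower (median -0.20). Igfbp3, a growth factor binding protein of peritubular capillaries, ranged from 14.8 to 30.7 CPM in saline and from 2.61 to 14.0 CPM in MCC950 libraries, without overlap (-1.30, SE 0.26, adjusted p = 0.00379). Vwf, von Willebrand factor, was also lower (-0.75, SE 0.19, adjusted p = 0.0133), and Npr3 was higher (0.62, SE 0.21, adjusted p = 0.0478), but did not pass with DESeq2 size factors (adjusted p = 0.057) or upper quartile normalization (adjusted p = 0.0742). Of 4 lymphatic genes tested, Lyve1 was higher (3.48, SE 1.07, adjusted p = 0.0306), but the value rested on MCC950 replicate 8 at 8.92 CPM, and without it the log2 fold change was 0.90 (adjusted p = 0.359), and with DESeq2 0.82 (adjusted p = 0.374).

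Among partners, Ehd1, the paralogue of Ehd3 found in most cells, rose by 0.57 (SE 0.08, adjusted p = 0.000443), from 34.9 to 45.0 CPM in saline to 52.1 to 69.9 CPM in MCC950 libraries. Cav2 fell by 0.63 (SE 0.13, adjusted p = 0.00466) and Cav1 by 0.49 (SE 0.15, adjusted p = 0.0314), so that of 12 genes of the EHD family and caveolae 1 was higher and 2 were lower (median -0.14; 4 lower with DESeq2). Of 20 junction partners 1 was higher and 2 lower (median 0.01, and between -0.04 and -0.01 with DESeq2, its size factors or upper quartile normalization). Of 16 genes around endoglin 0 were higher and 2 lower (median -0.18), Acvr2a (-0.28, SE 0.08, adjusted p = 0.0244) and Tgfbr3 (-0.37, SE 0.12, adjusted p = 0.0353), both receptors of the family. Of 12 plasminogen and clotting genes 1 was higher and 1 lower, S100a10 (0.30, SE 0.10, adjusted p = 0.0376) and Thbd (-0.36, SE 0.12, adjusted p = 0.0416), of which S100a10 did not pass with upper quartile normalization (adjusted p = 0.086).

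Markers of other cells moved here too. Of 12 proximal tubule markers 7 were higher in MCC950 than in saline libraries (median 0.93), and their summed level ranged from 1312 to 3160 CPM in saline and from 2113 to 4988 CPM in MCC950 libraries. Of 15 podocyte markers 5 were higher and 1 lower (median 0.36). Of 61 mesangial, collecting duct, macrophage, lymphocyte, platelet, red cell and fibroblast markers tested, 0 passed with edgeR, 11 had an unadjusted p under 0.05 and 4 were lower with DESeq2. Of 8 markers of the loop and distal tubule 2 were lower. The part of these cells and of the lower mitochondrial share in the endothelial values was not tested. With mitochondrial genes left out, the same number of genes, 4, were lower. Calls over all genes were then 1947 higher and 786 lower, against 1957 and 796, so this setting changed little over all genes. It does not remove whatever the lower mitochondrial share reflects, and so cannot decide its part.

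The calls also changed over all genes when other markers entered the fit, to 454 higher and 130 lower with the other endothelial genes, 440 and 358 with the proximal tubule markers and 2645 and 1274 with the podocyte markers, against 1957 and 796 without a term. With the mean of the 24 other endothelial genes as a term, Jam2 was lower (log2 fold change -1.0, adjusted p = 0.0108). Plvap (-0.69, adjusted p = 0.078), Esam (-0.17, adjusted p = 0.343) and Cldn5 (-0.25, adjusted p = 0.395) did not pass. Eng (0.72, adjusted p = 0.00366), Emcn (0.47, adjusted p = 0.0464) and Plat (0.52, adjusted p = 0.0491) were higher, but only relative to that mean. All 24 genes of the term had negative fold changes. Without the term Eng (0.28), Emcn (0.03) and Plat (-0.09) did not pass. With the proximal tubule markers as a term, Jam2 (-1.33, adjusted p = 0.0015) and Plvap (-1.12, adjusted p = 0.00148) were lower, Eng was higher (0.71, adjusted p = 0.0277), and Esam (-0.35, adjusted p = 0.159) and Cldn5 (-0.56, adjusted p = 0.104) did not pass, with fold changes close to those without the term. With the podocyte markers as a term, 7 of the 10 genes were lower, and Plvap was not among them (-0.54, adjusted p = 0.0547).

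The third comparison set the MCC950 libraries against the young libraries, with which the other comparisons share samples. All 10 genes were lower in MCC950 libraries, where 16.5% of all genes were lower, and in 7 of the 10 every MCC950 library was below every young library, against 4.66% of all genes. Ehd3 (log2 fold change -1.61, SE 0.24, edgeR adjusted p = 4.18e-05) and Jam2 (-1.58, SE 0.17, edgeR adjusted p = 2.29e-06) differed most. Plvap differed least (-0.52, SE 0.18, edgeR adjusted p = 0.0288), and Eng had a fold change of -0.73 (SE 0.18, edgeR adjusted p = 0.00283). The median log2 fold change was -1.17 over the 10 genes and 0.08 over all genes. With the 24 other endothelial genes or the mesangial markers as a term 0 of the 10 passed, and with the podocyte markers 2, but over all 16377 genes these terms left 0 higher and 0 lower, 28 and 21, and 60 and 120. Jam2 had log2 fold changes of -1.22 and -1.03 with the endothelial and mesangial terms, and Ehd3 had -1.15 with the mesangial term. Plvap did not pass with the macrophage markers as a term (-0.39, adjusted p = 0.102), nor Eng with the proximal tubule markers (-0.38, adjusted p = 0.0835).

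Within groups, the genes differed in how far they moved together from mouse to mouse. The log2 CPM of each gene was centred on its group mean and set against the mean of the other 9 genes over 21 libraries, which share depth and the same sort. Pearson's r was 0.90 for Plat, 0.89 for Cdh5 and 0.84 for Pecam1. It was 0.71 for Eng and Esam, 0.69 for Emcn and 0.62 for Ehd3 and Cldn5. Jam2 had an r of 0.27 and Plvap one of -0.08, the lowest values of the 10. These 2 genes, although listed with glomerular endothelium, varied least with the rest of the list. Of the young libraries replicate 5 was below its group mean in 10 of 10 genes and replicate 2 above it in 10 of 10, and among the others saline replicate 6 and MCC950 replicate 2 were above it in 10 of 10. Saline replicate 5 was mixed, with 4 genes above and 6 below the group mean.

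**Figure D5:**
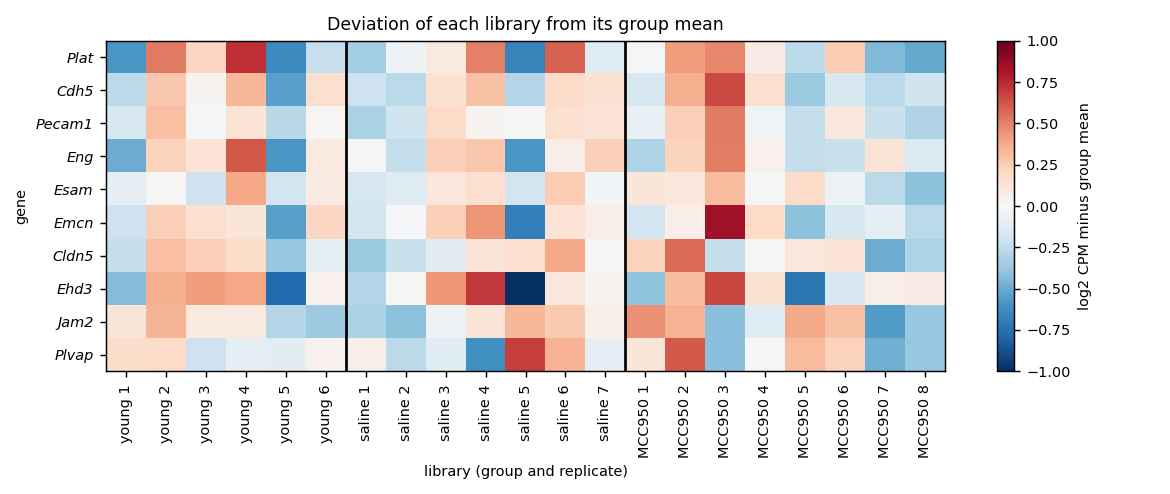
Log2 CPM of each endothelial gene (rows, ordered by Pearson's r with the other 9) in each library (columns) minus the mean of its group; red is above and blue below the group mean, and black lines separate the groups. Plat, Cdh5, Pecam1 and Eng shared their pattern. Plvap ran opposite to Ehd3 in libraries of each group, among them young replicates 1 and 3, saline replicates 4 and 5 and MCC950 replicates 3 and 5. In other libraries, such as young replicate 2 and MCC950 replicate 2, both were above the group mean.

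Among 12253 other genes with a mean of at least 1 log2 CPM, those whose centred values were most like the mean of the 10 genes over the 21 libraries were Slc9a3r2 (Pearson's r 0.943), Podxl (0.941), Epas1 (0.931), Fgd5 (0.918) and Dlc1 (0.914). They were followed by Heg1 (0.912), Adgrf5 (0.909), Mmrn2 (0.908), Clec14a (0.903) and Ptprb (0.902). Of these 10, Mmrn2, Clec14a and Ptprb belong to the list of genes made by most endothelium and Epas1 to the endothelial transcription factors. Podxl, a sialomucin that both podocytes and endothelium carry, is on the podocyte list.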

How the data were processed

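Podocyte fractions of 21 mice (6 young, 7 saline, 8 MCC950, by their labels) were analysed. The authors trimmed reads with Trim Galore, aligned them to mm10 with Bowtie2 and deposited 1 table of featureCounts read counts per library, with no normalization. Versions, annotation release, strand setting and handling of multiply aligned reads are not given in the sources used here. The authors' DESeq2-normalized table was not used.

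Of 27179 Entrez numbers, 25275 were named from RefSeq (GRCm38) and 18 from GENCODE. Within each group no library repeats another, since chi-square per degree of freedom was at least 17.7. Libraries of different groups were not compared in this way. Exon lengths for CPM per kb are unions over GENCODE M21 transcripts.

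A single fit of edgeR 4.0.16 (R 4.3.3) over the 3 groups used TMM, filterByExpr and the quasi-likelihood test with Benjamini-Hochberg adjustment over 16377 genes, and was checked on simulated data. DESeq2 1.42.0 was an alternative. Log2 CPM used a prior count of 2. Libraries were compared by exact permutation in scipy 1.17.1. The smallest library held 5804891 counts outside mitochondrial genes. Alternatives were 13 settings, 21 fits each leaving out 1 library, and mesangial markers as a term, added after seeing the data.

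Named are the 10 genes, Nphs1 as the target of the sort, up to 4 genes per list by smallest adjusted p, genes at or near 0 counts, and the 10 most alike genes. Some genes whose calls were lost in other fits are named as well. Members and all 20 gene lists, some of which share genes, were chosen with earlier results of these data known.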

Additional observations from a re-analysis of the deposited data

How the results depend on the processing

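In this section age means saline against young libraries, which also differed in injection. The counts of lower genes, 8 of 10 with age, 4 with MCC950 against saline and 10 with MCC950 against young, were the same or within 1.5 times under DESeq2, other normalizations and filters, 2 groups only, no mitochondrial genes and thinning to 5804891 counts outside mitochondrial genes. Leaving out 1 library gave 8 to 9, 4 to 5 and 9 to 10. Replicate numbers are not stated to pair the mice, and the correlation of deviations cannot settle it (from -0.061 to 0.35, -0.14 to 0.33 and -0.013 to 0.40). The replicate block gave 8, 4 and 10. With marker means as a term the counts were 0 with age for the 24 endothelial genes, the podocyte markers and the mesangial markers, 7 with MCC950 against saline for the podocyte markers, and 0, 2 and 0 against young for those 3 terms in that order. The calls over all 16377 genes moved too, to 28 higher and 4 lower, 6 and 0, and 18 and 5 with age, 2645 and 1274 against saline, and 0 and 0, 60 and 120, and 28 and 21 against young. With MCC950 against saline, the endothelial term left 1 of the 10 genes lower and 3 higher, relative to the other endothelial genes. The proximal tubule term left 2 lower and 1 higher. Over all genes these 2 terms gave 454 higher and 130 lower, and 440 and 358. The causes were not tested.

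Jam2 passed with age (adjusted p) under DESeq2 size factors (0.041), DESeq2 (0.0291) and 2 groups only (0.0249), and without young replicates 5 (0.0311) or 6 (0.0208), saline replicates 4 (0.0486), 5 (0.0415) or 6 (0.0366) or MCC950 replicates 3 (0.0492) or 7 (0.0402). Pecam1 passed with MCC950 under upper quartile normalization (0.0386), DESeq2 (0.0354) and thinning (0.0264), and without young replicates 2 (0.0466) or 5 (0.0469), saline replicate 1 (0.0269) or MCC950 replicate 3 (0.0194). Plvap did not pass against young without young replicate 1 (0.0541) or MCC950 replicates 3 (0.0516), 7 (0.0511) or 8 (0.0534), or with the macrophage term (0.102), nor did Eng with the proximal tubule term (0.0835).

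Among genes named from the lists, calls were lost in some of the 21 fits that leave out 1 library. For MCC950 against saline these were Npr3 (17 fits, adjusted p up to 0.0949 without MCC950 replicate 2), Thbd (11, 0.0799 without MCC950 replicate 4), S100a10 (10, 0.0896 without saline replicate 3), Tgfbr3 (6, 0.0652 without MCC950 replicate 8), Lyve1 (6), Erg (5, 0.061 without MCC950 replicate 5), Acvr2a (1, 0.0517 without MCC950 replicate 1) and Cav1 (1, 0.0517 without MCC950 replicate 8). Of the genes named from the lists with age, calls were lost in these fits for Ehd1 (10), Rap1b (11), Vwf (2), Selp (2) and Nr2f2 (1).

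Signs of log2 fold changes turned as follows. With age, the podocyte term gave Emcn 0.23, Ehd3 0.21, Eng 0.31, Plat 0.59 and Plvap -0.29, the endothelial term Plat 0.14 and the mesangial term Jam2 0.07. With MCC950 against saline, the endothelial term gave Cdh5 0.21 and Plat 0.52, the podocyte term Emcn -0.30, Ehd3 -0.39 and Eng -0.06, the proximal tubule term Plat 0.32 and the mesangial term Plat 0.04. Emcn was -0.02 under upper quartile normalization and under thinning. Leaving out 1 library gave -0.13 to 0.09 for Emcn (below 0 without saline replicates 1 or 5 or MCC950 replicate 3) and -0.04 to 0.19 for Ehd3 (below 0 without saline replicate 5 or MCC950 replicate 3). Against young, the endothelial term gave Cdh5 0.14, Emcn 0.42, Ehd3 0.19, Eng 0.69 and Plat 0.66, and the podocyte term Eng 0.25 and Plat 0.04.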
